A study of Mus musculus with 32 samples.

Results

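Day 14 was the last time point of a cortical stab wound study, and its libraries show which injury responses of microglia were still measurable after 2 weeks. The comparison used the 8 count columns of day 14, out of 32 columns in the series. The 2 columns of each group differed by little more than counting noise and were summed, which left 4 of 16 libraries. The wound side had 1 female and 1 male injured library, and the contralateral hemisphere gave 1 female and 1 male non-injured library. All were EYFP+ cells, sorted by flow cytometry from the dissociated cortex of adult C57BL/6 mice that carried 1 Cx3cr1CreER allele and received 180 mg/kg tamoxifen daily for 5 days at 8 to 10 weeks of age, before the wound. Non-injured cells came from the opposite hemisphere of wounded mice, so no library came from an unwounded brain. The labels do not say how many animals entered a library or which animals the 2 sides share. Days 1, 4 and 7 have the same layout and their own non-injured libraries. They served to estimate the spread and to place the day 14 effects in time.

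Microglia are the resident macrophages of the brain. In the intact cortex they express a homeostatic set of genes such as P2ry12, Tmem119 and Sall1, which depends on signals from the surrounding tissue. Contact with debris, lipid or plaques is known to lower this set and to induce the disease-associated programme, which includes Apoe, Lpl, Clec7a, Igf1, Cst7 and Spp1 and serves lipid uptake, lysosomal breakdown and tissue repair. Cx3cr1 is also active in border-associated macrophages and in monocytes, so a label under its control marks those cells as well.

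The day 14 libraries held 20863982 to 35794953 estimated counts. Both female libraries stood apart, with 14737 and 14777 genes detected against 33925 and 29450 in the male injured and non-injured libraries. Actb, the gene of cytoplasmic actin, took 6.48% and 1.45% of counts in the female and male injured libraries, against 10.4% and 1.27% in the non-injured ones. Since both members of the female pair share this, effects were taken within pairs, and the genes described below are given with their level in each library, so that the male pair can be read alone. Among the earlier libraries the male non-injured one of day 4 stood apart, with 25.7% of counts from mitochondrial genes, against 0.697% to 7.55% in the other libraries of the series. Across 8268 genes with a mean of at least 10 CPM at day 14 (counts scaled by library size), the female and male log2 ratios of injured over non-injured correlated with r = 0.35, and 57.5% had the same sign. This is a description across genes, which are not independent. The 10 microglial markers were measured in all 4 libraries, with a summed level of 40000 and 18900 CPM in the female and male injured libraries, against 70200 and 22200 CPM in the non-injured ones. Cx3cr1, the locus that drives the label, measured 72.5 and 21.3 CPM in the injured libraries and 107 and 36.0 CPM in the non-injured ones. Its log2 effect was -0.66 (SE 0.44, adjusted p = 0.456). In these bulk libraries, fewer cells of a type and less RNA per cell cannot be told apart.

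At day 14, 13 of 28597 genes tested rose at the wound (0.0455%) and 4 fell (0.014%), at an adjusted p under 0.05 in edgeR's quasi-likelihood test with Benjamini-Hochberg adjustment. The genes that rose were Clec7a, Lpl, Igf1, Ly9, Cd63, Thbs1, Atp6v0d2, Cd5l, Ctse, Cd200r4, Il1rn and the gene models Gm49339 and Gm28875. Those that fell were Upk1b, Slc6a17, Add2 and Dact3. An unadjusted p under 0.05 was reached by 2346 genes in the higher direction (8.2%) and by 2371 in the lower (8.29%). The 2 sides did not overlap for 2045 genes that were higher at the wound (7.15%) and 2228 that were lower (7.79%). The number of calls rests on the tool and the filter, with 1027 higher and 1088 lower in DESeq2, and on single pairs. Without either day 14 pair, either day 1 pair or the female day 7 pair 0 genes were called, without the male day 7 pair 2, and without the female or male day 4 pair 101 and 121 rises. The 17 genes kept their direction in all 21 alternative fits, which reuse the counts that picked them and so are no outside check. Of the 17, 6 were still called with no pairs and 2 with no filter beyond 1 count. The authors' deposited table compares the same day 14 sides over both sexes, and the sources used here do not state how it treated the near-identical columns. It has 1849 higher and 2030 lower genes at its adjusted p under 0.05, and holds all 17 in the same direction. As it comes from the same samples, it is not an independent check.

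**Figure D1:**
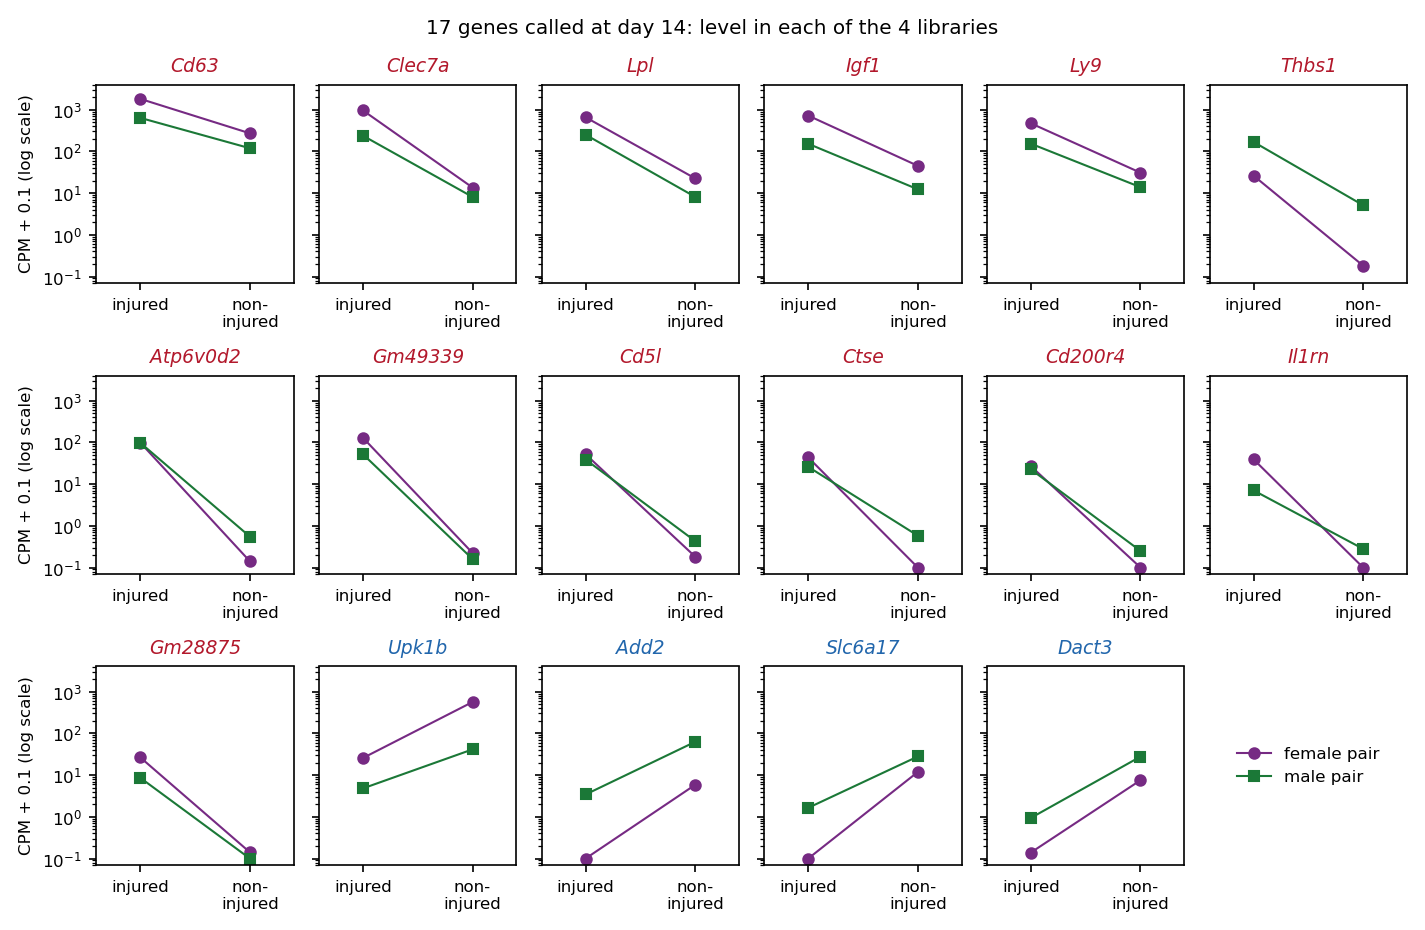
Level of the 17 called genes in each day 14 library, as CPM with 0.1 added on a log axis. Each panel is 1 gene (red title, higher at the wound; blue title, lower), with the injured library at left and the non-injured library at right joined by a line for each sex. Each line runs the same way in both pairs of a gene, and the 2 injured libraries lie beyond the 2 non-injured ones in all 17 panels.

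Of the genes that rose with enough counts on both sides to give a fold, Clec7a and Lpl had the largest effects. Clec7a, the gene of the fungal and debris receptor dectin-1 (chr6:129461591-129472779, minus strand, GRCm38, annotated as a polymorphic pseudogene in the files), measured 959 and 237 CPM in the female and male injured libraries, against 13.5 and 7.98 CPM in the non-injured ones. Its log2 effect was 5.53 (SE 0.57, adjusted p = 0.0387). Both injured libraries were far above both non-injured ones. Lpl, which encodes lipoprotein lipase, the enzyme that releases fatty acids from lipoprotein triglycerides, lies at chr8:68880491-68907448 on the plus strand. It had 656 and 251 CPM in the injured libraries against 22.4 and 8.01 CPM in the non-injured ones, a log2 effect of 4.92 (SE 0.55, adjusted p = 0.0387). The female and male log2 ratios of Lpl were nearly equal at 4.82 and 4.80. Sides that do not overlap were a condition for naming a rise or a fall under the rule, so they add nothing to the calls.

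Growth factor, adhesion and vesicle genes followed. Igf1, insulin-like growth factor 1, reached 720 and 152 CPM at the wound and 44.9 and 12.2 CPM in the non-injured libraries, with a log2 effect of 3.83 (SE 0.48, adjusted p = 0.0387). Ly9, a SLAM family adhesion receptor of leukocytes, had 469.9 and 152 CPM at the wound against 30.7 and 13.8 CPM opposite it, a log2 effect of 3.71 (SE 0.44, adjusted p = 0.0387). Cd63, a tetraspanin of late endosomes, lysosomes and exosomes, measured 1811 and 635 CPM in injured libraries and 271 and 119 CPM in non-injured ones, a log2 effect of 2.58 (SE 0.33, adjusted p = 0.0408). In all of these the lower injured library, the male one, lay above the higher non-injured one, which was the female.

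Other genes that rose were almost absent from the non-injured libraries, so their levels are given without a fold. Atp6v0d2, a subunit of the proton pump that acidifies lysosomes and is known from osteoclasts and macrophages, was at 98.6 and 97.7 CPM in the injured libraries, against 1 and 15 counts (0.0411 and 0.450 CPM) in the non-injured ones. Cd5l, a secreted macrophage protein that binds lipids and supports macrophage survival, was at 51.8 and 38.7 CPM, against 0.0822 and 0.330 CPM. Ctse, an endosomal aspartic protease, was at 43.5 and 25.8 CPM against 0 and 0.480 CPM. In all of these the wound side was high in both sexes and the other side near 0. Cd200r4, a receptor of the CD200 receptor family, had 26.8 and 22.5 CPM against 0 and 0.150 CPM, and Il1rn, the antagonist of the interleukin 1 receptor, had 39.3 and 6.97 CPM against 0 and 0.180 CPM. For Il1rn both sides were below their earlier levels. At days 1, 4 and 7 the injured libraries had held 48.7 to 763 CPM and the non-injured ones 0.853 to 14.7 CPM. Thbs1, the matrix glycoprotein thrombospondin 1, ran the other way between sexes, with 26.1 and 169 CPM in the female and male injured libraries against 0.0822 and 5.01 CPM. Each of these passed at an adjusted p of 0.0387. Predicted gene models are outside the rule for named genes and are given here after their values were seen: Gm49339, listed as protein-coding, had 129 and 51.9 CPM against 0.123 and 0.0600 CPM, and Gm28875, a long non-coding RNA, had 26.5 and 8.52 CPM against 0.0411 and 0 CPM.

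The decline of Upk1b, a tetraspanin gene of the microglial homeostatic set that is best known from bladder epithelium (chr16:38773184-38800328, minus strand), persisted. It was at 25.6 and 4.70 CPM in the female and male injured libraries, against 564 and 41.2 CPM in the non-injured ones, with a log2 effect of -3.87 (SE 0.49, adjusted p = 0.0387). The other 3 falls were of genes that neurons are known to express. Slc6a17, a vesicular transporter of neutral amino acids, was at 0 and 1.54 CPM at the wound against 11.8 and 27.8 CPM in the non-injured hemisphere. Add2, the membrane skeleton protein beta-adducin, was at 0 and 3.33 CPM against 5.75 and 62.6 CPM. Dact3, a modulator of Wnt signalling that lies below the 10 CPM needed to be named and was chosen after its values were seen, was at 0.0393 and 0.841 CPM against 7.44 and 27.6 CPM. Beside these falls, the summed level of 13 neuronal markers was 83.2 and 253 CPM in the female and male injured libraries, against 295 and 2310 CPM in the non-injured ones. Of these markers 9 were lower at an unadjusted p under 0.05, 0 were higher, and Gad1, Gad2 and Nefm were at 0 in the female injured library. Their part in the 3 falls was not tested.

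With fewer than 5 falls among the named genes, the rule adds the 10 lower genes of smallest p. Besides Upk1b, Slc6a17 and Add2 these were Cacng3, Cux2, Slc12a5, Zfp697, Slc2a5, Tmc7 and Stmn3, none of which passed (adjusted p from 0.0594 to 0.0749). Slc2a5, a fructose transporter of the homeostatic microglial set, measured 129 and 103 CPM at the wound and 554 and 522 CPM in the non-injured libraries, with a log2 effect of -2.22 (SE 0.37, adjusted p = 0.0749). The sides did not overlap, which the rule requires, and the 2 libraries of each side were close together. Cacng3, an accessory subunit of glutamate receptors, Slc12a5, the chloride exporter of neurons, Stmn3, a neuronal stathmin, and Cux2, a transcription factor of upper-layer cortical neurons, are known as neuronal genes. Cacng3 was at 0 and 1.89 CPM at the wound against 11.7 and 38.0 CPM in the non-injured libraries, Slc12a5 at 0.0393 and 1.75 CPM against 6.16 and 33.9 CPM, and Stmn3 at 1.73 and 1.16 CPM against 15.1 and 35.9 CPM. Cux2 was at 11.2 and 6.13 CPM in the injured libraries against 73.5 and 73.4 CPM in the non-injured ones. Tmc7, of a family of membrane channel-like proteins, was at 6.71 and 6.87 CPM against 90.4 and 39.2 CPM, and Zfp697, a zinc finger gene, at 2.98 and 2.63 CPM against 24.4 and 23.5 CPM.

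All 17 day 14 calls had the same direction of effect at each of days 1, 4 and 7, and most were already called there. Of the 13 rises, 6 had been called at day 1, where 0.472% of genes were called higher and 0.58% lower, 12 at day 4 (1.53% higher, 0.521% lower) and 11 at day 7 (0.318% higher, 0.0559% lower). Atp6v0d2 was the 1 rise called at no earlier day, where its adjusted p was 0.327, 0.104 and 0.0648 at days 1, 4 and 7. Of the 4 falls, 2 were called at day 1, 4 at day 4 and 2 at day 7. Igf1 had log2 effects of 0.62, 4.94, 5.34 and 3.83, and was not called at day 1 (adjusted p = 0.559). Upk1b had effects of -5.68, -4.68, -4.37 and -3.87 over the same days, with the largest deficit first.

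Read from the earlier side, most early changes retained their direction. Of 488 genes called higher at day 1, 4 or 7, 462 (94.7%) had a positive effect at day 14, against 49% of all genes. Of the 488, 317 (65%) were higher at an unadjusted p under 0.05, against 8.2% of all genes, and 0 were lower at that threshold. Of 264 genes called lower earlier, 246 (93.2%) had a negative effect at day 14, against 47.7% of all genes. Of the 264, 178 (67.4%) were lower at the unadjusted threshold, against 8.29% of all genes, and 4 were higher. The median effect of the early rises was 1.69 at day 14 and 2.48 over the earlier days, and that of the early falls -1.89 and -2.79. Of the genes called at all 3 earlier days, 28 of 34 rises and 7 of 7 falls passed the unadjusted threshold, and of those called at day 7, 79 of 91 rises and 15 of 16 falls did. Of the 44 rises and 110 falls called at day 1 and not at day 4 or 7, 12 (27.3%) and 47 (42.7%) did so. Each day has its own libraries, so these comparisons share no samples. They share the 1 model fit and its spread estimate for each gene, so a gene of small spread passes more easily at every day. The shares of all genes are not matched for this or for level. With DESeq2 the shares were 39.6% and 35.3%, and in edgeR without the male day 14 pair they were 56.6% and 37.3%, against 46.9% and 60.2% without the female one. Without the male day 4 pair, which holds the library of high mitochondrial share, they were 52.2% and 54.9%.

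**Figure D2:**
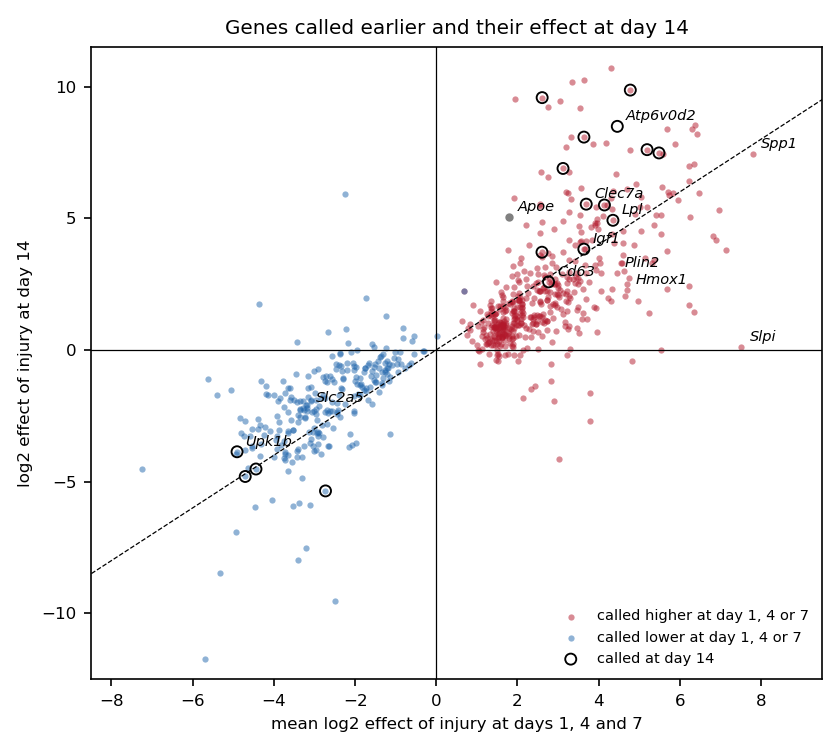
Log2 effect of injury at day 14 (vertical) against the mean log2 effect at days 1, 4 and 7 (horizontal), for genes called at 1 or more earlier days (red, higher; blue, lower); open circles mark the 17 genes called at day 14, and the dashed line is equality. Most red points lie above 0 and most blue points below 0, and Apoe, in grey, lies above the line.

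The disease-associated set was mostly higher at the wound. Of its 30 genes, 4 rose at day 14 (Clec7a, Lpl, Igf1 and Cd63), 23 were higher at an unadjusted p under 0.05 and 0 were lower; 29 were higher in both pairs, as were 14.3% of all genes. The median log2 effect was 2.25, against 0.00 over all genes, and it had been 0.70, 2.85 and 2.21 at days 1, 4 and 7. Within the pairs of day 14 the median log2 ratio was 2.40 in the female and 2.22 in the male pair. Apoe, which encodes the main lipid carrier of the brain, reached 116600 and 50770 CPM in the female and male injured libraries, against 2809 and 1967 CPM in the non-injured ones (log2 effect 5.03, SE 0.87, adjusted p = 0.0824). The sides were well apart in both sexes, though the gene did not pass. Its effect was -1.55, 2.28, 4.64 and 5.03 over the 4 days, and it was called at none of them. Spp1, the secreted matrix protein osteopontin, stood at 33100 and 7089 CPM against 66.8 and 117 CPM (log2 effect 7.43, SE 1.21, adjusted p = 0.0719), after effects of 7.31, 8.77 and 7.31 that were called at all 3 earlier days. Cst7, the cathepsin inhibitor cystatin F, was chosen after its values were seen and had 431 and 249 CPM against 5.51 and 23.5 CPM (adjusted p = 0.0697).

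The short DNA motif TGANTCA, where N is any base, was looked for in the promoters of this set, since its members moved together. It is wider than the usual site of AP-1 factors, which has C or G at N. RefSeq windows on GRCm38.p6, from 250 bases before to 50 after a gene's start, were at hand for 23 of the 30 genes, and TGANTCA occurred on either strand in 7 of them (30.4%), against 8.97% of 27025 promoters. Those genes were Igf1, Cst7, Cybb, Gpnmb, Itgax, Cd68 and Trem2. Of the 17 called genes 9 had a window, and Igf1, Il1rn and Slc6a17 held the motif. The motif is not particular to these sets, since 9 of 27 windows of interferon-stimulated genes (33.3%) held it too. The PU.1 motif GAGGAAGT was in 1 of the 23 windows (4.35%), against 3.69% of all promoters. The window of Igf1 is shown as that of the motif-bearing member with the smallest day 14 p (chr10:87860861-87861160, plus strand, the match in capitals, with A at N).
Igf1: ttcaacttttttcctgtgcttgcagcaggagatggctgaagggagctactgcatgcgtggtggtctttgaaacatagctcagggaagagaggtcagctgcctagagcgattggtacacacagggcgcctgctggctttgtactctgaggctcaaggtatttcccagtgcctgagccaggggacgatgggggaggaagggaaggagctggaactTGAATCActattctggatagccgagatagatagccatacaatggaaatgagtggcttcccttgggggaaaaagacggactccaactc
A match of these letters is a description of the window and says nothing on whether a factor binds there.

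**Figure D3:**
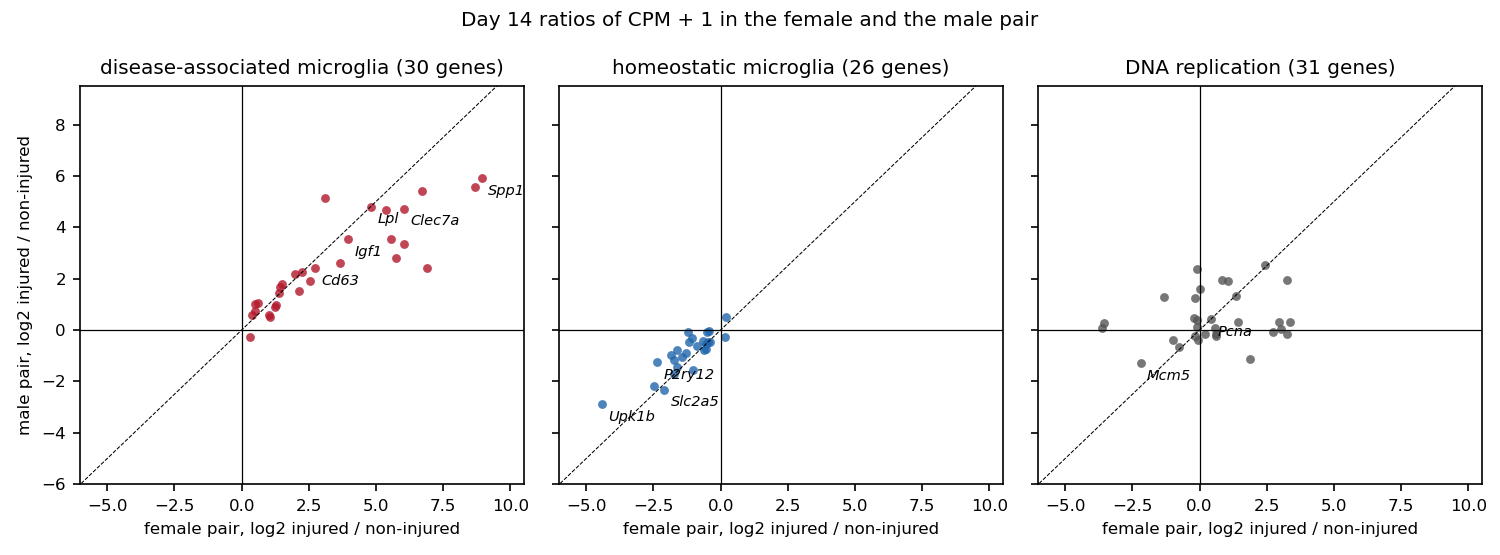
Day 14 log2 ratio of injured over non-injured CPM, with 1 CPM added, in the female pair (horizontal) and in the male pair (vertical), for the genes of 3 lists; the dashed line is equality. Of the disease-associated genes 29 of 30 lie in the upper right quadrant and of the homeostatic genes 24 of 26 in the lower left, while 11 of 31 replication genes were higher and 5 lower in both pairs.

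Genes of lipid efflux and storage had positive medians at all 4 days. Of 22 genes, Lpl rose, 17 were higher and 0 lower at an unadjusted p under 0.05, and the medians over the 4 days were 0.84, 2.37, 2.52 and 2.20. Plin2, the coat protein of lipid droplets, chosen after its values were seen, measured 279 and 222 CPM at the wound against 37.4 and 28.6 CPM (adjusted p = 0.0594). Matrix remodelling and adhesion genes had medians of 2.66, 2.76, 2.48 and 2.92, with Thbs1 rising and 18 of 30 higher and 1 lower at the unadjusted threshold. Their fitted day 14 median holds genes near 0 counts, and within pairs, with 1 CPM added, the median log2 ratio was 1.74 in the female and 1.54 in the male pair, against 2.16 and 1.86 for the lipid genes. Without the male day 14 pair the fitted median was 2.12. Fn1, fibronectin, is also on the monocyte list and measured 238 and 280.2 CPM against 2.999 and 10.3 CPM (log2 effect 5.43, SE 0.97, adjusted p = 0.0847). Iron, heme and antioxidant genes had a median of 1.21, with 7 of 23 higher and 0 lower. Ftl1, the ferritin light chain that stores iron, was at 11900 and 7880 CPM against 2914 and 1658 CPM (log2 effect 2.14, adjusted p = 0.0697).

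Lysosomal genes had positive medians after day 1. Of 32, Cd63 rose, 19 were higher and 0 lower at the unadjusted threshold, and the medians were -0.28, 1.67, 1.47 and 0.91 over the 4 days. The E-box of the MiT/TFE factors that control lysosomal genes, TCACGTG on either strand, occurred in 6 of 25 windows of this list (24%), against 4.29% of all promoters. Those were in Gla, Lamp1, Ctsd, Ctsa, Glb1 and Lgmn. Gla, the lysosomal alpha-galactosidase, had the smallest day 14 p of these, at 95.2 and 47.1 CPM in the injured libraries against 10.9 and 4.71 CPM in the non-injured ones (log2 effect 3.22, SE 0.61, adjusted p = 0.0902). Its window holds the motif in both orientations at 2 places, overlapping in a palindrome (chrX:134600956-134601255, minus strand, matches in capitals).
Gla: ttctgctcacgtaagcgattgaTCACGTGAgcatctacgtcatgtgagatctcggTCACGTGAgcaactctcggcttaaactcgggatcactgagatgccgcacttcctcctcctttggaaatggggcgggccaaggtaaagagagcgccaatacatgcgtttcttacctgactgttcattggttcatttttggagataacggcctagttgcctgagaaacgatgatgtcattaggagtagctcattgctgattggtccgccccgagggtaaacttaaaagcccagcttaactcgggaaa
MHC class I genes, which present peptides from inside the cell, had medians of -0.01, 1.5, 1.15 and 1.18, and 11 of 17 were higher and 0 lower at day 14 at the unadjusted threshold. B2m, the common light chain of class I molecules, was at 7099 and 4173 CPM against 2646 and 1302 CPM (log2 effect 1.55, SE 0.45, adjusted p = 0.192). In MHC class II, 5 of 10 genes were higher and 0 lower, with Cd74, the invariant chain, at 3428 and 2018 CPM against 424 and 299 CPM (log2 effect 2.89, adjusted p = 0.112).

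Homeostatic microglial genes were mostly lower at the wound. Of 26 genes, Upk1b fell, 16 were lower and 0 higher at an unadjusted p under 0.05, and 24 were lower in both pairs, as were 16.7% of all genes. The median effects were -1.89, -0.83, -1.01 and -0.79 from day 1 to day 14, and the day 14 median log2 ratio was -1.11 in the female and -0.75 in the male pair. Against the earlier days, 2 of 26 lay above their effect and 0 below it at an unadjusted p under 0.05, against 6.77% and 3.94% of all genes. P2ry12, the ADP receptor that steers microglial processes, measured 2221 and 663 CPM in the female and male injured libraries, against 11520 and 1581 CPM in the non-injured ones (log2 effect -1.82, SE 0.43, adjusted p = 0.135). Tmem119, a surface protein specific to microglia in the brain, measured 308 and 1327 CPM against 944 and 3637 CPM (log2 effect -1.54, SE 0.28, adjusted p = 0.0847). In both genes each injured library was below the non-injured library of the same sex, while the sides overlapped across sexes.

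Other groups had medians closer to 0 at day 14 than before. The medians over days 1, 4, 7 and 14 were 1.08, 2.10, 1.60 and 0.44 for 31 DNA replication genes and 0.65, 1.96, 2.15 and 0.44 for 32 mitosis genes. For 52 ribosomal protein genes they were 1.60, 1.29, 1.61 and 0.69, for 39 nuclear genes of the respiratory chain 0.90, 0.77, 1.11 and 0.12, and for 32 inflammatory and NF-kB genes 1.54, 2.52, 1.20 and 0.57. Some of these day 14 medians rest on single pairs. The respiratory median was 0.44 without the male day 14 pair and -0.12 without the female one, and 0.21 without the male day 1 pair. The mitosis median was 0.00 without the male and 0.12 without the female day 14 pair, and the inflammatory median 1.01 without the male one. At day 14, 11 of 32 inflammatory genes were still higher and 0 lower at an unadjusted p under 0.05, with Il1rn called. Of 52 ribosomal genes 8 were higher and 0 lower. In both pairs 46 of them were higher and 1 lower, against 14.3% and 16.7% of all genes. Of the replication genes 6 were higher and 1 lower, of the mitosis genes 1 and 1, and of the respiratory genes 1 and 0. Among all genes the shares were 8.2% and 8.29%. The difference of day 14 from the mean of the earlier days passed for 0 of 28597 genes in edgeR's test (0%, smallest adjusted p = 0.437), while 485 passed in DESeq2 and 1 in limma on log2(TPM + 1). At an unadjusted p under 0.05, 1127 genes lay below their earlier effect (3.94%) and 1936 above it (6.77%). Of 31 replication genes 8 lay below and 2 above, and of 32 inflammatory genes 6 below and 1 above. Below were 7 of 32 mitosis genes, 9 of 52 ribosomal protein genes and 4 of 39 respiratory genes, with 0 above in each of these lists. Day 14 minus day 1 and day 14 minus day 7 likewise gave 0 calls (smallest adjusted p = 0.309 and 0.423), with 2687 (9.4%) and 3355 genes (11.7%) at an unadjusted p under 0.05.

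**Figure D4:**
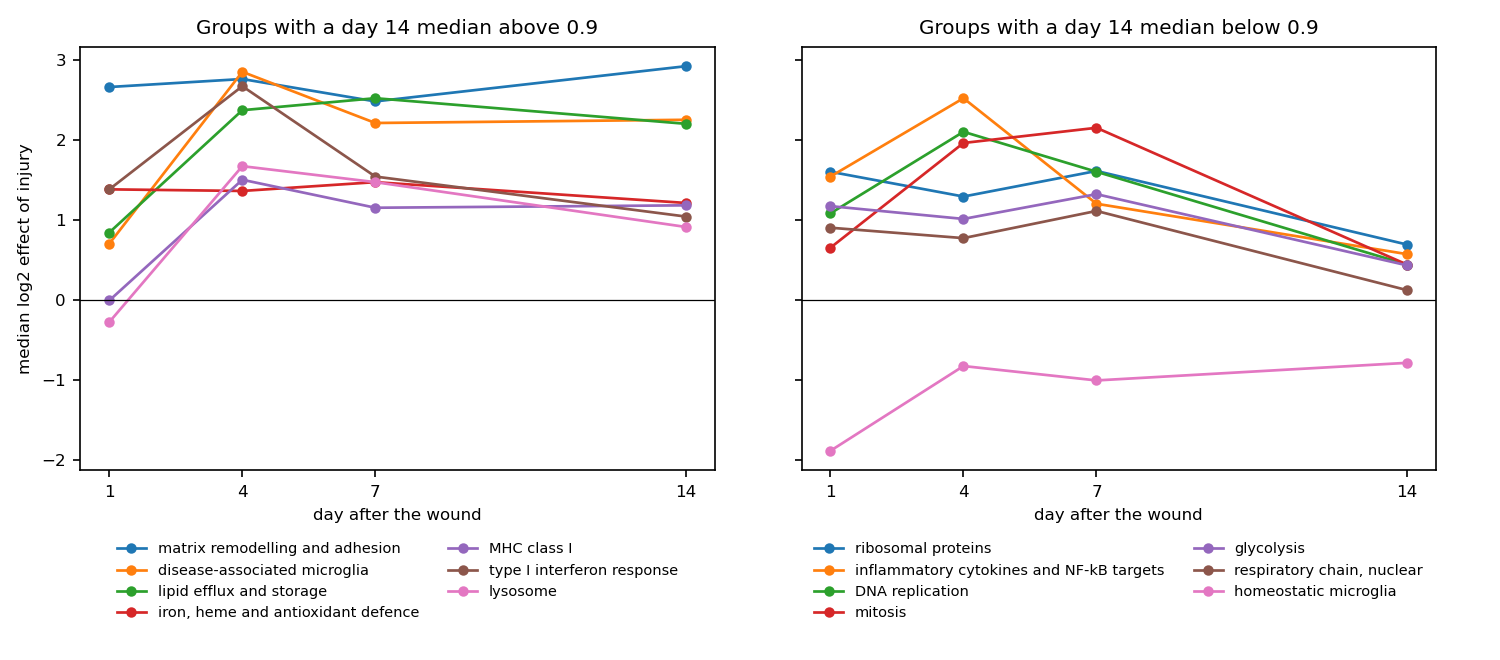
Median log2 effect of injury over the genes of each list (vertical) against the day after the wound (horizontal); the left panel holds those of the lists shown with a day 14 median above 0.9 and the right panel those below it. Matrix, disease-associated and lipid genes end between 2.20 and 2.92, while replication, mitosis and respiratory genes end between 0.12 and 0.44 and homeostatic genes at -0.79.

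Single genes show both courses. Hmox1, heme oxygenase 1, which degrades heme, had effects of 4.17, 6.18, 3.75 and 2.26, and at day 14 it measured 67.1 and 78.2 CPM against 12.9 and 17.7 CPM (adjusted p = 0.0719). Slpi, a secreted inhibitor of leukocyte proteases, had risen at all 3 earlier days, and at day 14 was at 0.0785 and 0.911 CPM in injured libraries against 0 and 0.930 CPM in non-injured ones. Mcm5, a subunit of the replicative helicase, was at 2.55 and 9.11 CPM at the wound against 15.3 and 23.7 CPM, a day 14 effect of -1.89 after 1.21, 2.63 and 2.09. None of these differences from the earlier days passed in edgeR. The other genes named for an effect below the earlier mean were Qsox2, a disulfide-forming oxidase, Pcyox1l, a prenylcysteine oxidase relative, Psmb3, a proteasome subunit, Tuba1c, an alpha-tubulin, and Sdf2l1, a chaperone cofactor of the endoplasmic reticulum. Qsox2 was at 4.36 and 3.93 CPM at the wound against 24.0 and 21.9 CPM, and Pcyox1l at 4.20 and 5.05 CPM against 22.6 and 25.2 CPM, so that both sexes were low at the wound. Psmb3 was at 125 and 68.7 CPM against 191 and 82 CPM, and Sdf2l1 at 264 and 92.7 CPM against 289 and 103 CPM. Tuba1c was at 31.0 and 36.6 CPM against 40.7 and 26.4 CPM, lower in the female and higher in the male pair. The day 14 log2 effects of Qsox2, Pcyox1l, Psmb3, Sdf2l1 and Tuba1c were -2.47, -2.37, -0.43, -0.14 and 0.04.

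Genes named for an effect above the earlier mean included surface receptors of myeloid cells. Lag3, an inhibitory receptor of lymphocytes that microglia also express, measured 142 and 469.7 CPM at the wound against 36.7 and 305 CPM, with effects of -2.23, -1.01, -0.49 and 1.27 (difference 2.51, SE 0.46). Its injured libraries had measured 84.6 to 552 CPM at the earlier days. Its female non-injured library was at 603, 1136 and 785 CPM on days 1, 4 and 7, and the male one at 723, 214 and 117 CPM. Siglecf, a sialic acid receptor, was at 29.4 and 48.8 CPM against 12.1 and 22.6 CPM, with effects of -2.20, -0.87, -0.12 and 1.19. Both were below the non-injured side in each earlier pair and above it in each day 14 pair. For Siglecf the female and male log2 ratios of day 7 were only -0.01 and -0.23. St8sia6, a sialyltransferase, Abca9, a lipid transporter relative, Fbxo32, a ubiquitin ligase subunit, and Cfap74, a cilium gene, had day 14 effects of 0.79, -0.55, 1.97 and -0.13. Fbxo32 was at 46.8 and 67.7 CPM at the wound against 13.7 and 15.3 CPM, and St8sia6 at 52.2 and 20.8 CPM against 31.5 and 11.5 CPM. Abca9 was at 208 and 165 CPM against 364 and 204 CPM, still lower at the wound in both pairs, and Cfap74 at 21.7 and 14.1 CPM against 19.7 and 18.6 CPM, with pairs in opposite directions. Nfrkb, a chromatin remodelling factor, was at 11.0 and 24.7 CPM against 0.616 and 2.79 CPM (adjusted p = 0.0704), and Irak3, an inhibitor of Toll-like receptor signalling, at 32.4 and 3.61 CPM against 0 and 0.0300 CPM (adjusted p = 0.0594). At the earlier days Nfrkb had measured 7.00 to 31.7 CPM in injured and 10.7 to 39.2 CPM in non-injured libraries. Irak3 had measured 7.63 to 63.6 CPM and 1.67 to 21.8 CPM. For both genes the day 14 non-injured levels lay below all earlier ones. As for the other named genes of this contrast, the adjusted p of the difference was at least 0.437.

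Interferon-stimulated genes had positive medians at all 4 days. Their medians were 1.38, 2.67, 1.54 and 1.04, and of 36 genes 0 were called at day 14, 17 were higher and 0 lower at an unadjusted p under 0.05, and 7 were below their earlier effect at that threshold. The interferon-stimulated response element, searched on either strand as GAAA, 2 bases of any kind and GAAA, occurred in 16 of 27 promoter windows of this list (59.3%), against 3.99% of all promoters. Slfn5, a Schlafen gene induced by interferon, had the smallest day 14 p among them, at 32.5 and 45.1 CPM against 7.64 and 6.72 CPM (log2 effect 2.42, SE 0.54, adjusted p = 0.124). Its window is shown with the match in capitals (chr11:82951852-82952151, plus strand).
Slfn5: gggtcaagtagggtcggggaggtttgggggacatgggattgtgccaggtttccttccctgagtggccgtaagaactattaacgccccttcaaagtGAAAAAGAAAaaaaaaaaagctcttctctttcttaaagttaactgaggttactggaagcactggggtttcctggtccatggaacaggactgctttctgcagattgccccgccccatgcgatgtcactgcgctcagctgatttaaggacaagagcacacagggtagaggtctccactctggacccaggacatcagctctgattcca

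Markers of other blood and brain cells were measured beside the groups above. The 15 monocyte markers summed to 282 and 466 CPM in the female and male injured libraries, against 11.5 and 51.7 CPM in the non-injured ones, of which Fn1 alone gave 238 and 280.2 CPM at the wound. Without it the list holds Ccr2, the chemokine receptor of inflammatory monocytes, at 15.4 and 22.7 CPM against 0.822 and 2.37 CPM. Over the whole list, 8 markers were higher and 1 was lower in both pairs. The median log2 ratio was 0.37 in the female and 1.7 in the male pair. Of these 15 markers 6 were at 0 in the female injured library and 9 in the female non-injured one. The 12 T cell markers summed to 34.7 and 37.5 CPM against 5.96 and 4.83 CPM, with 5 at 0 in the female injured library. The 13 markers of border-associated macrophages summed to 965 and 1010 CPM against 604 and 398 CPM, but their median log2 effect was -0.16, with a median ratio of -0.55 in the female and 0.70 in the male pair. Ms4a7, chosen after its values were seen, gave most of the female sum at the wound, at 640.4 and 301 CPM against 78.6 and 13.8 CPM. Mrc1, the mannose receptor of these macrophages, was at 32.3 and 93.2 CPM against 179.7 and 55.3 CPM, and Cd209f, a lectin, at 1.57 and 0.666 CPM against 48.6 and 2.88 CPM. The 12 endothelial markers summed to 291 and 191 CPM against 553 and 425 CPM. For other cells the summed levels of the pairs went opposite ways or many markers were at 0 in the female libraries. The 12 oligodendrocyte markers summed to 1080 and 1400 CPM against 390 and 1890 CPM. Their median log2 ratio was 0.98 in the female and 0.34 in the male pair, with 6 higher and 0 lower in both pairs. The 12 astrocyte markers summed to 617 and 467 CPM against 410 and 1380 CPM. The 9 B and plasma cell markers tested summed to 410 and 305 CPM against 529 and 195 CPM. The 12 neutrophil markers summed to 61.2 and 314 CPM against 51.8 and 196 CPM. Csf3r alone gave 51.85 and 249.9 CPM of this, against 51.76 and 185.7 CPM. Of the 12 markers 8 were at 0 in the female injured and 9 in the female non-injured library. The 10 NK cell markers summed to 13.5 and 13.4 CPM against 7.72 and 3.12 CPM, with 7 and 8 at 0 in those libraries. Camk2a, a kinase of excitatory neurons, was at 0.942 and 135 CPM against 16.4 and 1352 CPM (log2 effect -3.56, adjusted p = 0.0932). The part of these cells in the results was not tested.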

How the data were processed

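RNA of sorted EYFP+ microglia was made into cDNA with SMART-Seq v4 and into libraries with Nextera XT, per the labels' protocols, a chemistry that does not keep the strand, so that reads of overlapping or antisense genes cannot be told apart. Salmon 1.0.0 is listed, with DESeq2 1.26.0, in the submitters' processing notes. For the deposited counts, the sources used here state no build, annotation or settings. The deposited table of expected counts holds estimated reads per gene for 55385 genes, not normalized. The authors also deposited TPM values, and for day 14 a table with a log2 fold change and an adjusted p-value per gene, per the file headers. Symbols are the files' own, and coordinates are from GENCODE M21 (GRCm38), which holds 54487 of the IDs. Promoter windows are from RefSeq (GRCm38.p6). All columns of the count table were used.

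The 2 columns of a group were compared with a chi-square per gene, whose median was 0.475 to 0.639 over 16 groups, against 0.455 for counting noise, so columns were summed and rounded. P-values then measure the spread between 8 pairs of libraries, which may be technical in part. Each day has 1 female and 1 male pair, so this spread is the difference between their effects within a day. Sex and library cannot be told apart in it. Counts were fitted in R 4.3.3 with edgeR 4.0.16 (quasi-likelihood, TMM factors, filterByExpr at a minimum count of 10, 28597 genes) with 8 day-by-sex pair means and 4 day effects, 4 residual and 5.33 prior degrees of freedom. CPM use TMM-scaled library sizes, and log2 ratios of single pairs use CPM with 1 added. A fold or log2 effect is printed for a named gene with at least 10 counts in each library of its lower side. Genes were called at an adjusted p under 0.05, and SE is the log2 effect over the square root of F. The scripts were tested on simulated data, in which genes at 10 CPM or more were changed at day 14. Of 100 genes changed by a log2 of 2, 0 were called, and of 100 changed by 4, 25 were, with 0 false calls. Genes not called here may therefore still have changed.

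Named were up to 14 rises and falls of largest effect among called genes at 10 CPM whose sides did not overlap, up to 8 genes per direction of smallest p for day 14 against earlier days, and of each list up to 4 called members and the member of highest CPM; Cx3cr1, Spp1 and Apoe were added. Some genes that the rule names are not reported here. For falls fewer than 5 passed, and the 10 of smallest p were named. Members, lists and tests were chosen with earlier results of these data known. Alternatives were other size factors, DESeq2 1.42.0, 2 other filters, limma 3.58.1 on log2(TPM + 1) and log2(TPM + 0.1), no pairs, day 14 alone, unsummed columns, and leaving out columns or pairs. The earlier dispersion estimate of edgeR was added after seeing the data.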

Additional observations from a re-analysis of the deposited data

Results flagged for a closer look

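In 7 of the genes named for their difference from the earlier days, both day 14 pairs lay on one side of 0 and all 6 earlier pairs on the other. Qsox2 differed from the earlier mean by -3.24 on the log2 scale, with log2 ratios of -2.22 in both day 14 pairs and 0.26 to 1.88 in the earlier ones. Mcm5 differed by -3.87, with ratios of -2.20 in the female and -1.29 in the male pair of day 14. Psmb3 differed by -1.95, with -0.60 and -0.25, and Sdf2l1 by -1.67, with -0.13 and -0.15. The ratios of Sdf2l1 at day 14 are small, so its difference is mostly the earlier rise. In the other direction, Lag3 differed by 2.51, with 1.92 in the female and 0.62 in the male pair, and St8sia6 by 3.0, with 0.71 and 0.80. The male day 4 ratio of St8sia6 was only -0.16. Siglecf differed by 2.26, with 1.21 and 1.08, and its female and male ratios of day 7 were only -0.01 and -0.23. None of these differences passed edgeR's test (adjusted p of at least 0.437). Among 9025 genes at 10 CPM, 28 (0.31%) were higher in both day 14 pairs and lower in all earlier ones, and 223 (2.47%) the reverse.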

How the results depend on the processing

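The number of calls depended on the processing, and the cause was not tested. Against 13 rises and 4 falls, median-ratio size factors gave 30 and 10, DESeq2 1027 and 1088, no filter beyond 1 count 2 and 0, a mean of at least 1 CPM 220 and 83, limma on log2(TPM + 1) 84 and 31 and on log2(TPM + 0.1) 155 and 101, no pairs 7 and 0, and day 14 alone 80 and 9. The earlier dispersion estimate of edgeR, chosen after seeing the data, gave 508 and 501. Leaving out a pair or a column gave 0 to 121 rises and 0 to 39 falls. The contrast with earlier days had 0 calls, but 485 in DESeq2, 1 in limma on log2(TPM + 1) and 125 with the earlier dispersion estimate. At an unadjusted p under 0.05, 65% of early rises were higher and 67.4% of early falls lower at day 14. Called again at day 14 were 12 of 488 early rises and 4 of 264 early falls. For the shares at the unadjusted threshold, DESeq2 gave 39.6% and 35.3%, and the earlier dispersion estimate 44.9% for falls. Leaving out pairs gave 46.9% to 87.8% and 37.3% to 91.7%.

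The column numbers did not pair the samples (r from -0.0272 to 0.0329 over 8 pairs). With the 32 columns as separate samples, whose spread is that of near-identical columns, there were 7204 rises, 6840 falls, 10335 contrast calls and shares of 40.6% and 34.4% without a replicate block. With the replicate block there were 4760, 4725 and 6364 calls and shares of 37.5% and 33.4%. Among named genes, Tuba1c turned to -0.48 and -0.49 in limma at the 2 pseudocounts and ranged over -0.33 to 0.53 without single pairs. Without single pairs or columns, Slpi ranged over -0.57 to 4.64 and Cfap74 over -0.34 to 0.21. Of the list medians recomputed, that of the neuronal markers was -1.83 in limma on log2(TPM + 1) against -3.08. Leaving out single pairs took the respiratory median over -0.12 to 0.44, mitosis over 0.00 to 0.60, inflammatory genes over 0.57 to 1.01 and matrix genes over 2.12 to 3.0. With 2 pairs at day 14, of which the female one detected fewer genes, genes with few counts have levels only in the report, and the range of Slpi, at 0 counts in the female non-injured library, is a fitted value that gives no fold.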

Other observations

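Other functional lists gave the following values, and none of the members named here passed. At an unadjusted p under 0.05, 8.2% of all genes were higher and 8.29% lower, and the smaller counts below are near those shares. Complement had 6 of 15 genes higher and 1 lower at that threshold, with medians of -0.39, 1.59, 1.10 and 0.68 over days 1, 4, 7 and 14. The genes in this section were chosen after their values were seen. C4b, a component of the classical pathway, was at 56.3 and 135 CPM in the female and male injured libraries against 3.12 and 10.1 CPM in the non-injured ones (adjusted p = 0.0829). Cholesterol biosynthesis had 0 of 24 genes higher and 2 lower, with medians of 0.28, -0.58, -0.02 and -0.75. TGF-beta signalling had 1 of 22 higher and 4 lower, among them Smad3, a signal transducer of the pathway, at 18.3 and 22.2 CPM against 41.6 and 68.8 CPM (adjusted p = 0.202).

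At the same unadjusted threshold, purinergic receptors had 1 of 14 higher and 2 lower, with members in both directions, against 8.2% and 8.29% of all genes. P2rx4, an ATP-gated channel, was at 272 and 297 CPM at the wound against 118 and 68.4 CPM (adjusted p = 0.145), while P2ry13, an ADP receptor, was at 414 and 443 CPM against 1475 and 866 CPM (adjusted p = 0.231). Immediate early genes, which tissue dissociation can also induce, had 1 of 22 higher and 3 lower and a median of -0.14. Jun was at 117 and 348 CPM against 249 and 657 CPM (adjusted p = 0.365). Microglial transcription factors had 4 of 22 higher and 2 lower and a median of -0.04.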
